A study of Mus musculus with 8 samples.

Results

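The 10 genes examined here build, bind or cut the cardiac jelly, the matrix that lies between myocardium and endocardium in the embryonic heart. They are *Has2*, *Ugdh*, *Vcan*, *Bcan*, *Hapln1*, *Cd44*, *Adamts1*, *Adamts5*, *Adamts9* and *Fbln1*, chosen by name for their roles from the 55291 gene symbols of the count table. The choice was made with earlier results of these data known. All 10 were among the 26820 genes tested. The RNA came from the ventricles of E10.5 mouse embryos (C57BL/6N background by the growth protocol, strain label C57BL/6), with 4 cKO libraries (*Pkn2* fl/fl, XMLC2-Cre+) and 4 control libraries from Cre-negative *Pkn2* fl/fl littermates. The floxed alleles were thus shared by both groups. XMLC2-Cre recombines in cardiomyocytes, so other cells of the ventricle kept an intact *Pkn2*. How many embryos went into a library and their sex are not given in the sources used here. Library totals were 47559845 to 56660938 counts. Control replicate 1 stood apart in carrying more hepatic and yolk sac marker RNA (42.6 CPM, counts per 1000000, against 13.5 to 19.7 CPM in the other 7 libraries). For the 10 genes, results that turned on this library are given without it. *Pkn2*, the targeted gene, was lower in every cKO library (77.6 to 84.3 CPM) than in any control library (133 to 153 CPM), with reads of the deleted exon not told apart from the rest of the transcript. In a bulk sample, fewer cells of a type and less RNA per cell cannot be told apart, and this holds for each value below.

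Cardiac jelly is a hydrated gel built on hyaluronan, a long unbranched sugar polymer. Hyaluronan is extruded from the cell surface by hyaluronan synthases, of which HAS2 is the main one in the embryonic heart, from UDP-glucuronic acid made by UGDH and UDP-N-acetylglucosamine. Versican (*Vcan*), a large chondroitin sulfate proteoglycan, binds hyaluronan, and the link protein HAPLN1 locks this bond. Secreted metalloproteases of the ADAMTS family cut versican, and the gel is removed locally as trabeculae grow. Mice without *Has2* or *Vcan* fail to form normal cardiac jelly and endocardial cushions.

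Levels were compared between genes on the authors' length-scaled values (TPM, transcripts per 1000000). In controls *Vcan* was the most abundant of the 10 genes, at 244 ± 24.4 TPM (mean ± SD, n = 4), followed by *Fbln1* at 126 ± 11.1 TPM, *Hapln1* at 97.7 ± 4.23 TPM and *Ugdh* at 58.2 ± 2.14 TPM. The control ranges of these 4 genes did not overlap. *Adamts1* (29.5 ± 3.54 TPM), *Adamts9* (24.6 ± 1.80 TPM) and *Cd44* (23.0 ± 2.73 TPM) formed a group in which each gene overlapped the next in controls. *Has2* stood at 13.4 ± 1.86 TPM and *Adamts5* at 1.25 ± 0.145 TPM. *Bcan* was listed at 0 TPM in 7 of 8 libraries. In cKO the order was the same down to *Adamts5*, except that *Cd44* (25.2 TPM) stood above *Adamts9* (23.8 TPM), within the spread of both. The *Hapln1* range in cKO (107 to 134 TPM) reached into that of *Fbln1* (114 to 139 TPM), which it did not do in controls (92.5 to 101 TPM against 113 to 139 TPM). In raw counts, *Vcan* took 0.137% to 0.164% of a control library and 0.175% to 0.221% of a cKO library. It ranked between 43 and 48 among all genes in controls and between 30 and 41 in cKO.

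**Figure D1:**
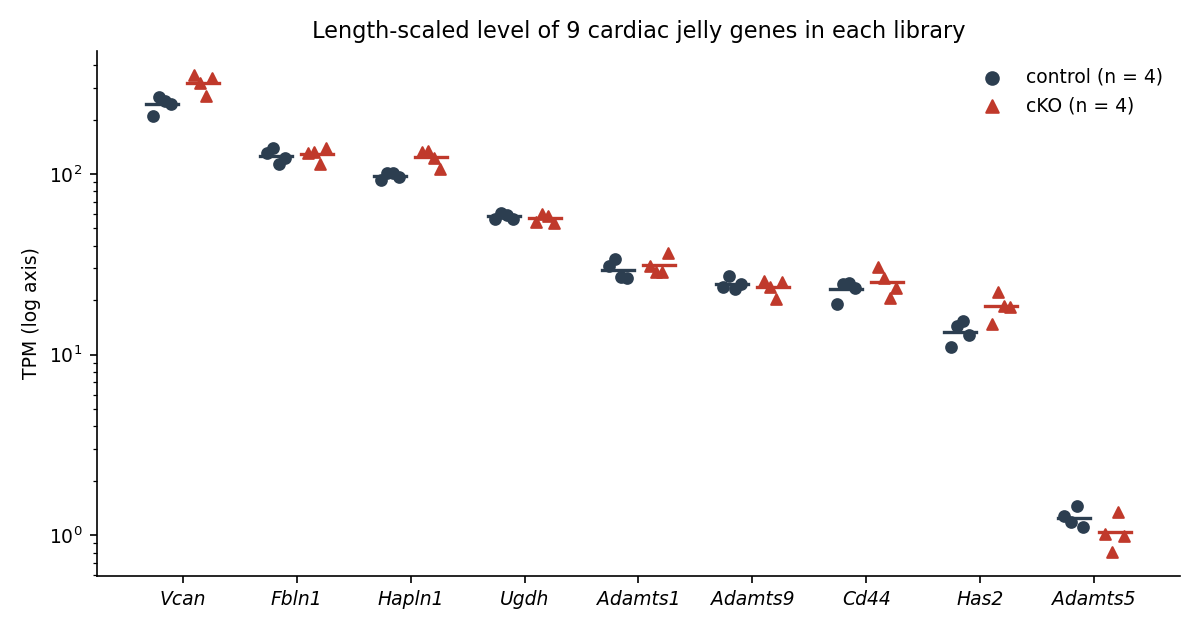
Level of 9 of the 10 genes in TPM (log axis), with 1 point per library (circles control, triangles cKO, n = 4 each) and a line at each group mean; *Bcan* is left out because it was listed at 0 in 7 libraries. *Vcan* leads in both groups, at 210 to 268 TPM in controls and 271 to 355 TPM in cKO, and *Adamts5* is the lowest gene shown.

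*Vcan* (ENSMUSG00000021614, chromosome 13, 89655312 to 89742509, minus strand, GRCm38) rose in cKO ventricles. Control replicates 1 to 4 held 1368, 1621, 1642 and 1613 CPM, and cKO replicates 1 to 4 held 2210, 1994, 1728 and 2092 CPM. The groups did not overlap, with control replicate 1 well below the other controls and cKO replicate 3 nearest to them. The cKO mean of 2006 ± 205 CPM stood against a control mean of 1561 ± 129 CPM (SD, n = 4 each), a fold of 1.29 with a 95% interval of 1.14 to 1.44. On the log2 scale it rose by 0.36 ± 0.079 (standard error), with an adjusted p of 0.0415 (quasi-likelihood test of edgeR, Benjamini-Hochberg over all genes tested), and the two-sided exact permutation p was 0.0286, the smallest that 4 libraries against 4 allow. The change was below the fold of 1.5 used in the study's methods. Without control replicate 1 the log2 fold change was 0.31 and missed the threshold (adjusted p = 0.134 by edgeR). *Vcan* was the only one of the 10 genes to pass the threshold (adjusted p of at most 0.05), where 0.858% of all genes tested passed, 0.515% with a higher and 0.343% with a lower level in cKO. Of the 10 genes, 5 had a log2 fold change above 0, with a median of 0.02 against −0.00085 over all genes tested. With 1 library left out, the call held in 1 of the 8 fits with a library left out (without cKO replicate 3), while in the others the adjusted p was 0.0557 (without cKO replicate 4) to 0.136 (without cKO replicate 1), with log2 fold changes from 0.31 to 0.43 over the 8 fits. On log2 TPM with limma, *Vcan* had a log2 fold change of 0.39 and did not pass (adjusted p = 0.143 to 0.348 over 3 settings).

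*Hapln1* (ENSMUSG00000021613, chromosome 13, 89539796 to 89611652, plus strand, GRCm38), the link protein gene and the neighbour of *Vcan*, missed the threshold by a small margin. It was measured at 301, 312, 330 and 317 CPM in control replicates 1 to 4 and at 415, 415, 390 and 334 CPM in cKO replicates 1 to 4. All cKO libraries lay above all controls, cKO replicate 4 by only a few CPM. The mean was 389 ± 38.2 CPM against 315 ± 12.4 CPM, a fold of 1.23 (95% interval 1.12 to 1.37), or 0.30 ± 0.069 on the log2 scale (standard error; adjusted p = 0.0505 by edgeR, two-sided exact permutation p = 0.0286). It passed with DESeq2 (adjusted p = 0.00201), limma-voom (0.048) and edgeR with DESeq2 size factors (0.0476). Among the 10 genes, *Vcan* and *Hapln1* were those whose groups did not overlap in CPM, which was the case for 6.91% of all genes tested. It did not pass with limma on log2 TPM (adjusted p = 0.12 to 0.29 over 3 settings). With 1 library left out it passed by edgeR in 2 of 8 fits, without cKO replicate 4 (log2 fold change 0.38, adjusted p = 0.00405) and without cKO replicate 3 (0.30, adjusted p = 0.039), and in the other 6 the adjusted p was 0.0932 to 0.163.

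*Has2* (ENSMUSG00000022367, chromosome 15, 56665627 to 56694539, minus strand, GRCm38), which makes the polymer itself, showed the highest fitted change of the genes with measurable levels but a wide spread. Control replicates 1 to 4 were at 25.2, 30.7, 34.4 and 29.6 CPM, and cKO replicates 1 to 4 at 31.4, 48.2, 41.9 and 39.5 CPM. In 3 of 4 cKO libraries the level was above every control, and cKO replicate 1 lay inside the control range. Mean levels were 30.0 ± 3.78 CPM in controls and 40.3 ± 6.94 CPM in cKO, a fold of 1.34 (95% interval 1.14 to 1.58), and the log2 fold change of 0.43 (standard error 0.111) did not pass (adjusted p = 0.0894 by edgeR; two-sided exact permutation p = 0.0571). It passed with DESeq2 (adjusted p = 0.0133) but not with limma-voom (0.128) or with limma on log2 TPM (0.188 to 0.407 over 3 settings). With 1 library left out it passed by edgeR in 1 of 8 fits, without cKO replicate 1 (log2 fold change 0.53, adjusted p = 0.0307), and in the other 7 the adjusted p was 0.0953 (without control replicate 3) to 0.264 (without control replicate 1).

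*Ugdh*, which supplies a sugar precursor, varied little between libraries. Its values were 73.5, 73.7, 76.4 and 74.3 CPM in control replicates 1 to 4 and 66.5, 73.9, 75.6 and 67.4 CPM in cKO replicates 1 to 4. Replicates 1 and 4 of cKO lay below every control and the others within the control range. Its log2 change of −0.07 had a standard error of 0.057 (adjusted p = 0.684 by edgeR), which corresponds to a fold of 0.951 with a 95% interval of 0.874 to 1.03. *Has2* was at 27.0% to 37.1% of the *Ugdh* level in cKO libraries and at 19.5% to 25.8% in controls on the TPM scale, a ratio given as a description without a test.

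*Cd44* encodes a cell surface receptor for hyaluronan. It was at 41.8, 47.4, 53.4 and 49.6 CPM in control replicates 1 to 4 and at 59.1, 52.9, 43.3 and 48.4 CPM in cKO replicates 1 to 4. The groups overlapped, and the log2 fold change of 0.08 (standard error 0.090) did not pass (adjusted p = 0.792 by edgeR; fold 1.06, 95% interval 0.928 to 1.21). *Bcan*, which encodes brevican, a relative of versican best known from brain, had 0 to 5 counts per library and 21 in total. The 0 counts in cKO replicate 2 allow a level of up to 0.0627 CPM (counting error only), so a difference was not detectable at this depth.

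None of the 3 protease genes passed the threshold by edgeR (unadjusted p under 0.05 for *Adamts5* alone), DESeq2 or limma. *Adamts1* was at 86.9, 91.3, 75.1 and 76.0 CPM in control replicates 1 to 4 and at 84.0, 77.9, 80.2 and 99.7 CPM in cKO replicates 1 to 4. Only cKO replicate 4 left the control range, and without it the log2 fold change turned from 0.05 to −0.02. With all libraries the fold was 1.04 with a 95% interval of 0.920 to 1.17 (standard error 0.082 on the log2 scale, adjusted p = 0.864 by edgeR). *Adamts9* was at 99.0, 107, 92.6 and 102 CPM in controls and at 101, 93.7, 83.0 and 100 CPM in cKO, so that only cKO replicate 3 was outside the control range. Its fold was 0.944 (95% interval 0.854 to 1.04, adjusted p = 0.704 by edgeR).

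*Adamts5*, the scarcest of the proteases, was at 7.82, 7.11, 9.15 and 6.93 CPM in control replicates 1 to 4 and at 6.01, 4.76, 8.07 and 5.87 CPM in cKO replicates 1 to 4. In 3 of 4 cKO libraries it was below every control, with cKO replicate 3 as the exception. The log2 fold change of −0.33 (standard error 0.151) had an unadjusted p of 0.0447 and did not pass after adjustment (adjusted p = 0.377 by edgeR; two-sided exact permutation p = 0.143). *Fbln1* encodes fibulin-1, a cofactor that ADAMTS1 uses on proteoglycans. Its 4 control libraries ran from 165 to 194 CPM and its 4 cKO libraries from 164 to 195 CPM, with a fold of 0.984 (95% interval 0.892 to 1.09, adjusted p = 0.939 by edgeR). The sign of this small difference was not fixed, since the log2 difference was 0.04 on the TPM scale and also above 0 in CPM without control replicate 1, control replicate 2 or cKO replicate 3 (up to 0.02).

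Set against *Vcan* on the TPM scale, the proteases together took a lower level in cKO. *Adamts1*, *Adamts5* and *Adamts9* added up to 26.6%, 23.2%, 20.3% and 21.5% of the *Vcan* TPM in control replicates 1 to 4. In cKO replicates 1 to 4 the sum was 16.2%, 16.8%, 18.7% and 18.6%. All cKO libraries were below all controls, with means of 17.6% ± 1.25 and 22.9% ± 2.74 (SD, n = 4 each). *Fbln1* was at 44.9% to 61.6% of *Vcan* in controls and at 37.0% to 42.3% in cKO, again without overlap. *Hapln1* kept a similar ratio, at 39.0% ± 5.89 of *Vcan* in cKO and 40.3% ± 2.64 in controls, and so did *Has2*, at 5.86% ± 1.35 and 5.48% ± 0.393. These ratios use the *Vcan* values already given and are therefore no separate evidence, and no test was made of them. They are RNA levels, which say nothing of protease activity or of how much versican was cut.

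**Figure D2:**
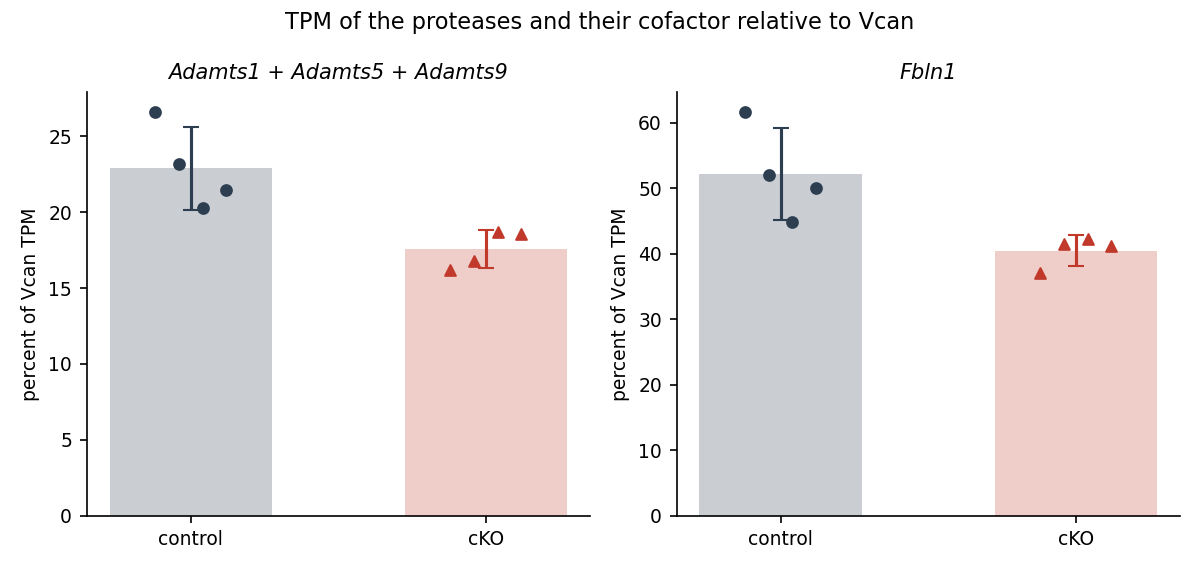
TPM of *Adamts1*, *Adamts5* and *Adamts9* together (left) and of *Fbln1* (right) as a percentage of the *Vcan* TPM in the same library; bars are group means from 0, error bars SD, points single libraries (n = 4 each). Proteases were at 20.3% to 26.6% in controls and 16.2% to 18.7% in cKO, with no overlap in either panel.

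The libraries did not rank alike over the genes. Relative to the control mean of log2 CPM, cKO replicate 1 was the highest cKO library for *Vcan* (0.51), shared the top for *Hapln1* (0.40) and was the lowest cKO library for *Has2* (0.08). In cKO replicate 2 *Has2* was highest (0.69) and *Adamts5* lowest (−0.69). cKO replicate 4 was high for *Vcan* (0.43), lowest of its group for *Hapln1* (0.09) and highest for *Adamts1* (0.28). Control replicate 1 was the lowest control for *Has2* (−0.24), *Vcan* (−0.19), *Hapln1* (−0.07) and *Cd44* (−0.20). Of all pairs of the 9 genes with a mean of at least 1 CPM, *Adamts9* and *Fbln1* had the most similar values over the 8 libraries (root mean square difference 0.0793 on the log2 scale). *Has2* and *Adamts5* were farthest apart (0.616). *Vcan* was closest to *Hapln1* (0.148), then to *Cd44* (0.21) and *Has2* (0.234). The values were taken relative to the control mean, so the size of the group difference enters these distances.

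**Figure D3:**
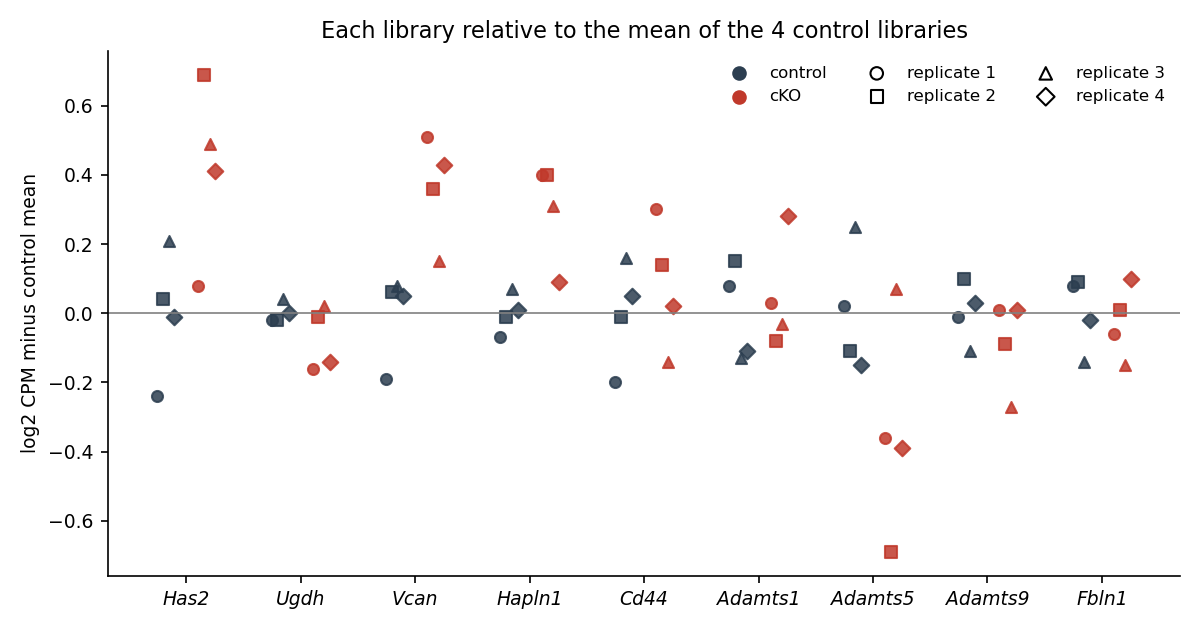
log2 CPM of 9 genes in each library minus the mean of the 4 control libraries; colour gives the group and marker shape the replicate number, and the grey line is the control mean. For *Vcan* and *Hapln1* every cKO point is above every control point, *Has2* has 1 cKO library (0.08) among the controls, and *Adamts5* has 3 cKO libraries below the controls.

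The genes whose pattern was most like that of a member, out of 14301 with a mean of at least 1 CPM, were found by the same root mean square difference over the 8 libraries. For *Vcan* these were *Bcr* (0.0361), *Ccdc125* (0.0612) and *Il27ra* (0.0623). *Bcr* had a mean of 65.0 CPM in controls against 84.7 CPM in cKO and passed the threshold (log2 fold change 0.38, adjusted p = 0.038 by edgeR). As *Bcr* was picked for its likeness to *Vcan*, this call is no separate evidence. For *Has2* they were the predicted genes *Gm21769* (0.118), *Gm14091* (0.123) and *Gm15708* (0.136), all at a few CPM. For *Adamts1* they included *Naif1* (0.0459) and *Wdr81* (0.048), neither of which passed.

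The other genes of the pathway were examined in 8 lists that held 112 symbols, of which 108 were tested. Of these, 5 passed as higher and 2 as lower in cKO (edgeR, threshold 0.05), which is 6.48% of the list genes beside 0.858% of all genes tested, many of them of low level. The lists were chosen with earlier results of these data known, so the higher share is no separate evidence of a change in the pathway. The median log2 fold change was 0.02, and 56 of the 108 genes had a positive value, as did 49.8% of all genes.

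Genes of hyaluronan synthesis and its sugar precursors showed no call among 8. On the TPM scale the most abundant were *Ugp2* (215 ± 12.3 CPM in controls, 198 ± 15.3 CPM in cKO, adjusted p = 0.509 by edgeR) and *Uap1* (63.8 ± 1.66 against 65.5 ± 2.70 CPM, adjusted p = 0.852). Of 12 tested genes for hyaluronan breakdown and receptors, 1 rose. It was *Stab1*, which encodes stabilin-1, a scavenger receptor of macrophages and some endothelia, and it went from 101 ± 16.0 to 177 ± 49.3 CPM (log2 fold change 0.81, standard error 0.155, adjusted p = 0.0214 by edgeR). *Cemip2*, a hyaluronan-cutting membrane protein gene, was at 352 ± 6.88 and 402 ± 42.1 CPM (adjusted p = 0.225), and the hyaluronidase gene *Hyal2* at 75.0 ± 4.02 and 74.4 ± 3.11 CPM (adjusted p = 0.969). Of the 26 genes that make and sulfate chondroitin chains, the side chains of versican, none passed by edgeR. *Chst15* passed as higher in cKO with DESeq2 (adjusted p = 0.0413) but not by edgeR (0.158). The most abundant on the TPM scale were *B3gat3* (log2 fold change −0.06, adjusted p = 0.790) and *Fam20b* (−0.18, adjusted p = 0.152), which both act on the linker that joins the chain to its core protein.

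Among 11 other genes listed as hyaluronan-binding, 2 fell. *Habp4* encodes a protein that, despite its name, is mainly an RNA-binding protein inside cells, and it went from 61.7 ± 0.952 to 45.3 ± 4.33 CPM (log2 fold change −0.45, standard error 0.067, adjusted p = 0.00513 by edgeR). *Itih3*, a heavy chain of the inter-alpha-trypsin inhibitor made mainly by liver, was barely present, at 0.938 ± 0.152 CPM in controls and 0.302 ± 0.164 CPM in cKO (log2 fold change −1.63, adjusted p = 0.0465). Its call was lost with limma-voom (adjusted p = 0.0515), with the stricter filter of filterByExpr (0.0586) and with *Xist* as a covariate (0.0507). *Xist* was low in every library (0.0801 to 2.24 CPM), so that fit cannot serve as a check of embryo sex. Beside *Itih3*, 5 of 6 tested hepatic and yolk sac markers had a lower fitted level in cKO and none passed by edgeR. Values without control replicate 1, which held the most of this marker RNA, are not given for these markers. *Ttr* was at 1.43 ± 1.10 CPM in controls and 0.432 ± 0.155 CPM in cKO without overlap (adjusted p = 0.082, and 0.00923 with DESeq2), and *Afp* at 4.72 ± 7.50 and 0.371 ± 0.354 CPM (adjusted p = 0.103). *Trf*, which made up most of the summed marker level except in control replicate 1 (sum 42.6 CPM), was at 13.2 ± 1.46 and 15.0 ± 2.97 CPM. The part of hepatic or yolk sac RNA in the *Itih3* value was not tested. *Itih5* was at 15.4 ± 0.572 and 13.6 ± 1.65 CPM (adjusted p = 0.445).

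No gene among the 16 other ADAMTS proteases passed by edgeR, with *Adamts10* (44.3 ± 1.14 CPM in controls, 50.4 ± 8.53 CPM in cKO, adjusted p = 0.415) and *Adamts6* (34.1 ± 2.23 against 35.4 ± 4.94 CPM, adjusted p = 0.884) the most abundant on the TPM scale. *Adamts4* was higher in cKO, at 3.0 ± 0.49 CPM in controls and 4.76 ± 1.21 CPM in cKO (log2 fold change 0.67). It passed with DESeq2 (adjusted p = 0.0174) but not by edgeR (0.108). In the list of 10 ADAMTS-like proteins and inhibitors, *Adamtsl2*, which lacks a protease domain and binds fibrillin-1, rose from 17.7 ± 1.42 to 31.6 ± 5.58 CPM (log2 fold change 0.83, standard error 0.104, adjusted p = 0.00159 by edgeR). The inhibitor genes *Timp3* (86.6 ± 4.27 and 98.9 ± 10.2 CPM, adjusted p = 0.235) and *Timp2* (64.2 ± 1.42 and 58.9 ± 4.34 CPM, adjusted p = 0.414) did not pass. Of 10 matrix metalloprotease genes, 2 rose: *Mmp2*, a gelatinase gene, from 70.1 ± 10.1 to 93.4 ± 6.81 CPM (log2 fold change 0.42, adjusted p = 0.0328) and *Mmp9* from 0.179 ± 0.101 to 0.915 ± 0.384 CPM (log2 fold change 2.33, adjusted p = 0.0221), a gene of low level that did not pass with limma-voom (adjusted p = 0.0734). *Mmp14*, at 121 ± 5.02 and 133 ± 10.9 CPM, and *Mmp15*, at 254 ± 14.2 and 235 ± 31.7 CPM, did not pass (adjusted p = 0.389 and 0.634). *Mmp17* was lower in cKO, at 3.43 ± 0.758 CPM in controls and 2.09 ± 0.444 CPM in cKO (log2 fold change −0.72). It passed with DESeq2 (adjusted p = 0.0192) but not by edgeR (0.107).

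Of 15 tested fibulins and other versican partners, *Fbn1* rose. It encodes fibrillin-1, whose microfibrils bind versican, and was at 287 ± 34.2 CPM in controls and 386 ± 44.2 CPM in cKO (log2 fold change 0.43, standard error 0.088, adjusted p = 0.0294 by edgeR). The fibronectin gene *Fn1*, at 2340 ± 334 and 3168 ± 531 CPM, had a log2 fold change of 0.44 and did not pass (adjusted p = 0.0838). *Itgb1*, an integrin chain gene, was at 761 ± 32.8 and 773 ± 17.7 CPM (adjusted p = 0.926). *Hmcn1* passed as higher in cKO with DESeq2 (adjusted p = 0.00668) but not by edgeR (0.0691). *Habp4* and *Adamtsl2* passed in all 8 fits with a library left out. *Itih3* passed in 1 of the 8, without cKO replicate 3, with adjusted p up to 0.154 (without control replicate 1). *Stab1* and *Fbn1* did not pass without control replicate 1, 3 or 4 or cKO replicate 1 (adjusted p up to 0.0927 and 0.125), *Mmp9* without control replicate 1, 2 or 4 or cKO replicate 1 (up to 0.0898), and *Mmp2* without control replicate 3 or 4 or cKO replicate 1 or 4 (up to 0.132).

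**Figure D4:**
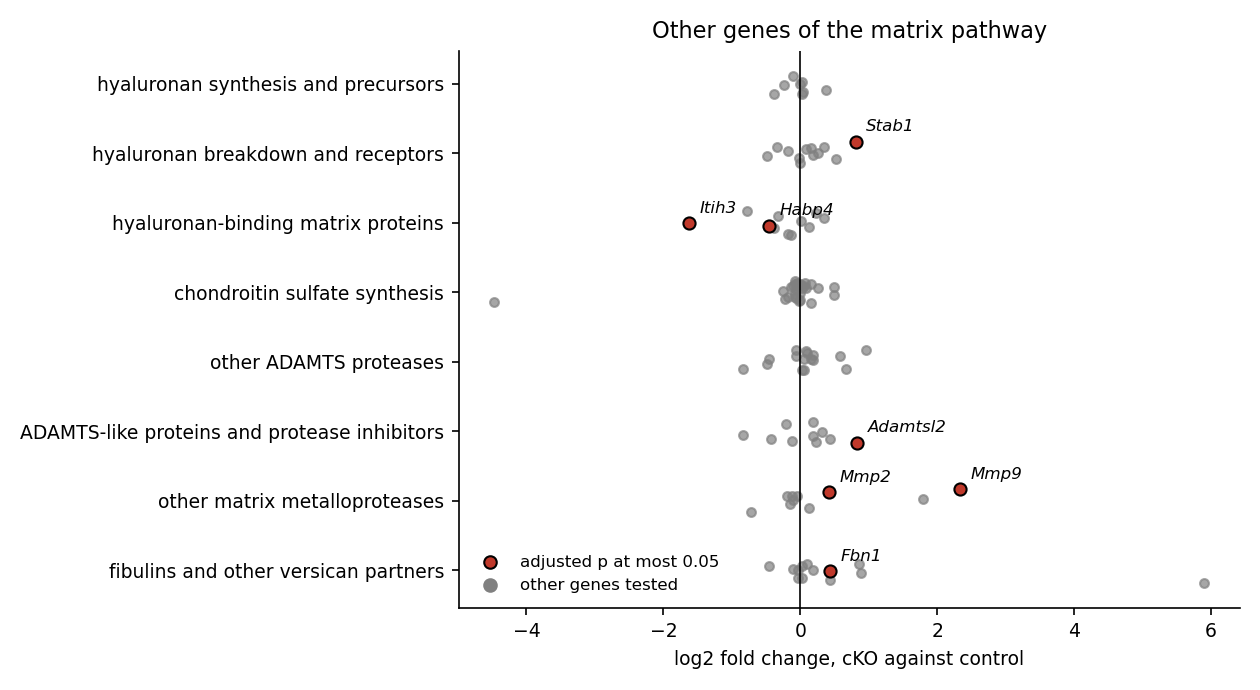
log2 fold change (cKO against control) of the 108 other pathway genes tested, 1 point per gene in 8 lists, with genes at an adjusted p of at most 0.05 outlined and named. *Stab1*, *Adamtsl2*, *Mmp2*, *Mmp9* and *Fbn1* are on the higher side and *Habp4* and *Itih3* on the lower side; the points farthest from 0 on either side (*Selp*, *Chst13*) are genes without a count in 1 of the groups, so that their position depends on the fit and is no measure of size.

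Cell type markers were read beside these genes. All 14 endothelial and endocardial markers had a higher fitted level in cKO under each of 5 scalings or tests (median log2 fold change 0.37), 6 of them passed by edgeR, 12 by DESeq2 and 3 by limma-voom, and none was at 0 in any library. Their summed level was 1910, 1861, 1613 and 1829 CPM in control replicates 1 to 4 and 2443, 2062, 2047 and 2588 CPM in cKO replicates 1 to 4. *Vcan* was highest in the same pair of cKO libraries, replicates 1 and 4, that had the highest endothelial sum, while among controls replicate 1 had the highest sum and the lowest *Vcan*. *Has2* and *Hapln1* did not follow this order: *Has2* was lowest of its group in cKO replicate 1, and *Hapln1* in cKO replicate 4. The part of endothelial content in the *Vcan* and *Hapln1* values was not tested. The marker genes named by the rule were *Emcn* (log2 fold change 0.72), *Nfatc1* (0.36), *Cdh5* (0.53), *Pecam1* (0.48) and *Tie1* (0.41), which passed by edgeR (*Pecam1* and *Tie1* not by limma-voom, adjusted p = 0.0633 and 0.0622), and *Plvap* and *Egfl7*, which did not (adjusted p = 0.556 and 0.105 by edgeR).

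**Figure D5:**
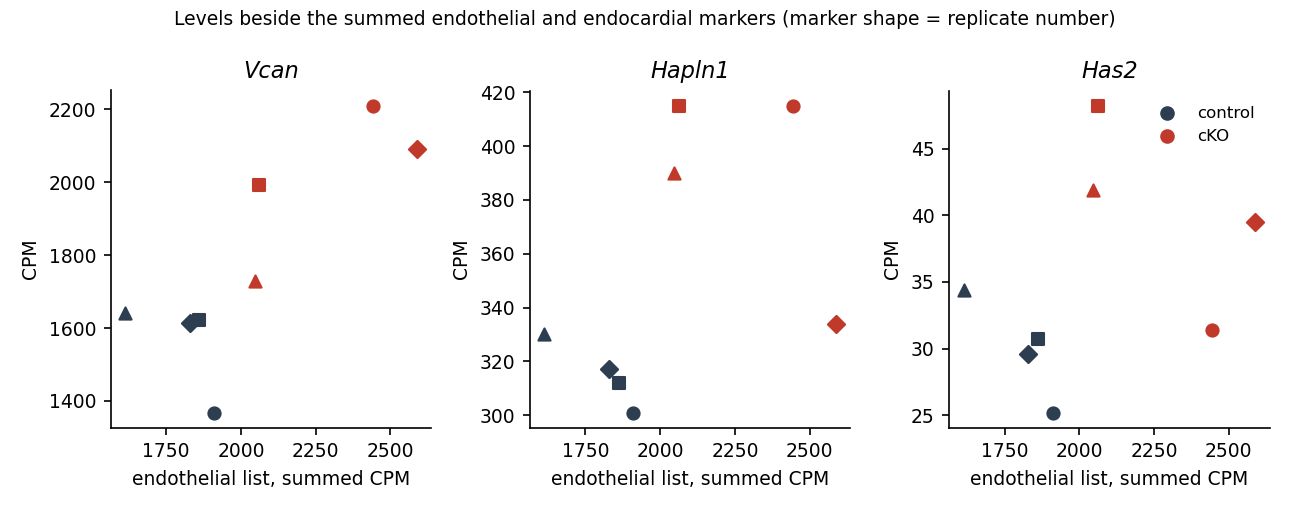
CPM of *Vcan*, *Hapln1* and *Has2* (vertical axes, which do not start at 0) against the summed CPM of 14 endothelial and endocardial markers in each of the 8 libraries; colour gives the group and marker shape the replicate number. cKO libraries have the higher marker sums (2047 to 2588 against 1613 to 1910 CPM), *Vcan* is highest in the pair with the highest sums, and *Hapln1* and *Has2* are not.

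Markers of cushion mesenchyme, the cells that invade the jelly, were at a summed 202 to 247 CPM in cKO and 198 to 235 CPM in controls, with none of 10 past the threshold by edgeR (*Postn* log2 fold change 0.15, *Prrx2* 0.02) and none at 0. The 13 cardiomyocyte markers were at 40496 to 43840 CPM and 40528 to 44924 CPM, also with none past the threshold by edgeR (*Actc1* −0.05, *Myl2* −0.12). None of them was at 0, so the labelled tissue carried its defining genes in every library. *Nkx2-5* was lower in cKO without overlap (97.0 ± 15.2 against 121 ± 4.25 CPM). It passed with DESeq2 (adjusted p = 0.0286) but not by edgeR (0.109). Macrophage markers were low and higher in cKO, at 8.87 to 38.7 CPM against 4.58 to 9.89 CPM, with 2 of 10 past the threshold by edgeR (*C1qc* and *C1qb*), neither of which passed by limma-voom (adjusted p = 0.076 and 0.0857), while 5 of 10 markers passed by DESeq2. *Stab1*, a gene of macrophages and some endothelia, was at 101 ± 16.0 CPM in controls and 177 ± 49.3 CPM in cKO. The macrophage and endothelial marker sets were both higher in cKO, and their part in the *Stab1* value was not tested. Epicardial markers were at 344 to 522 CPM in cKO and 438 to 464 CPM in controls, erythroid markers at 1297 to 4521 and 1416 to 4398 CPM, and neural markers at 31.5 to 46.5 and 26.9 to 32.5 CPM, with none past the threshold by edgeR. With DESeq2 the epicardial *Tbx18* (adjusted p = 0.0309) and *Aldh1a2* (0.00489) passed as lower in cKO, and the neural *Tubb3* (0.025) as higher. Control replicate 1, the library with the most hepatic and yolk sac marker RNA, also had the lowest *Vcan*, and the part of the one in the other was not tested.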

How the data were processed

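RNA from ventricular tissue was extracted with TRIzol and poly(A) libraries were made with the TruSeq RNA Library Prep Kit v2. Per the paper's methods reads were processed with nf-core/rnaseq, and the submitters' processing notes name Trim Galore 0.6.7, HISAT2 2.2.1, StringTie 2.2.1 and featureCounts. Deposited were unnormalized counts for each gene symbol and a table of TPM values scaled by gene length. The strand setting is not given in the sources used here. Positions in the TPM table are those of GRCm38 (starts of all 10 genes lie within 1984 bases of RefSeq GRCm38.p6), although the methods name GRCm39.

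Genes with 8 or more counts over all libraries (26820) were tested with edgeR 4.0.16 in R 4.3.3 (quasi-likelihood F test, TMM, design with condition alone, Benjamini-Hochberg adjustment, threshold 0.05). CPM was scaled by TMM, and log2 CPM used a prior count of 2. DESeq2 1.42.0 and limma 3.58.1 (voom, and log2 TPM with pseudocounts 1 and 0.1) were alternatives. Exact permutation tests were two-sided over the 70 groupings of 4 against 4. Intervals are 95% intervals of the edgeR fit. The members and gene lists were chosen with earlier results of these data known. Named genes were the 10 members, list genes past the threshold (at most 5 per list), the 2 genes of highest TPM per list, and the 3 genes most like *Has2*, *Vcan* and *Adamts1*, of which 1 is not reported here. On simulated counts with 25970 genes tested, edgeR found 34% of 100 genes changed 1.3-fold and 85% of 100 genes changed 2-fold, and 9.16% of its calls were false. The changed genes were drawn at random from those with a mean of at least 1 CPM.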

Additional observations from a re-analysis of the deposited data

Results flagged for a closer look

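In control replicate 1 *Vcan* was at 1368 CPM, and the next control library was at 1613 CPM. This gap was 0.895 of the range of the 4 control libraries, above Dixon's 95% critical value for 4 samples. The 10 genes in the 2 groups gave 20 such sets of 4 libraries, of which 1 was picked out, and chance picks out about 1 in 20.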

How the results depend on the processing

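*Vcan* kept its direction under every alternative but did not pass on log2 TPM with limma (log2 fold changes 0.392, 0.393 and 0.392 with pseudocount 1, pseudocount 0.1 and a minimum mean of 1 TPM), and ranged from 0.307 to 0.429 with 1 library left out. *Hapln1* came to pass with DESeq2 size factors (0.309), DESeq2 (0.309), limma-voom (0.296), no filter (0.310), the replicate block (0.299), the length and GC trend removed (0.333), and both of the last (0.331), with 0.276 to 0.377 over fits without 1 library. *Has2* came to pass with DESeq2 (0.431), no filter (0.432), the replicate block (0.418), the length and GC trend removed (0.470) and both of the last (0.458), with 0.336 to 0.533 without 1 library. Removing the length and GC trend was chosen after seeing the data. *Adamts1* ranged from −0.0217 to 0.117 without 1 library and *Fbln1* from −0.0689 to 0.0195. *Fbln1* also changed sign on log2 TPM (0.0355, 0.0357 and 0.0355) and by its TPM per library (0.0353). The cause was not tested.

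The number of the 10 genes past the threshold was 1 in the report, 2 with DESeq2 size factors and limma-voom, 3 with DESeq2, no filter, the replicate block, the trend removed and both of the last, 0 in the 3 fits on log2 TPM, and 0 to 2 without 1 library. For the 108 other pathway genes it was 7, against 11 with DESeq2, 14 with no filter, 5 with limma-voom, 6 with filterByExpr, 6 with *Xist* as a covariate, 0 on log2 TPM, and 2 to 12 without 1 library. Over all genes it was 230, against 867 with DESeq2, 878 with no filter, 380 with the replicate block, 447 with block and trend removal, 1, 7 and 22 on log2 TPM (limma, where 3169, 3126 and 2190 genes had an unadjusted p under 0.05), and 67 (without control replicate 1) to 744 (without cKO replicate 3). Samples shared only a replicate number: deviations of same-numbered libraries correlated at −0.19, −0.03, 0.0056 and −0.14 over 14302 genes. Of genes changed 1.3-fold in simulated counts, 34% were found at this depth and number of libraries. The changed genes were drawn from those with a mean of at least 1 CPM, so 34% is an average and no rate for a single member.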

Other observations

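*Hapln1* and *Vcan* lie next to each other on chromosome 13, with 43.7 kb between their facing ends in GRCm38. This was looked at after their values were seen. Of the 3 other genes within 1 Mb that had a mean of at least 1 CPM, none passed by edgeR: *Edil3* had a log2 fold change of 0.20 (adjusted p = 0.371), *Xrcc4* of −0.04 (adjusted p = 0.93) and *Tmem167* of −0.10 (adjusted p = 0.556). *Adamts1* and *Adamts5* are likewise neighbours, 53.1 kb apart on chromosome 16. The 7 other genes around them had log2 fold changes of −0.15 to 0.45, and none passed (lowest adjusted p = 0.218 by edgeR).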
